A study of Mus musculus with 4 samples.

Results

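The 10 genes described here are the Notch receptors Notch1, Notch2, Notch3 and Notch4, the ligands Dll4, Jag1 and Jag2, and the target genes Hes1, Hey1 and Heyl. They were taken by name from the 31017 gene symbols measured in sorted vessel progenitor cells of C57BL/6 mice, and all 10 were found in every library. The study sorted the cells into the populations P1 and P2 from fat and from lung and profiled each by droplet-based single-cell RNA sequencing of the 3' ends of transcripts, with 1 library for each tissue and population. Each library mixes cell types, so fewer cells of a type and less RNA per cell cannot be told apart in its summed counts. The groups are P1 of lung, P1 of fat, P2 of lung and P2 of fat. Both gates took cells without the leukocyte protein CD45 and the erythroid protein Ter119 and with the angiopoietin receptor Tie2. P1 cells were in addition CD31+ and PDGFRa-, with high CD105 and low Sca1. P2 cells were PDGFRa+ and CD31-, with low CD105 and high Sca1. Age, sex and number of animals are not given in the sources used here, and nothing states how many animals entered a library. With 1 library per group no test was possible, and each value below describes these libraries alone.

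Notch receptors are single-pass membrane proteins that are activated by ligands on a neighbouring cell. Binding leads to cleavage of the receptor, and the freed intracellular domain joins the DNA-binding protein RBPJ and turns on genes such as those of the Hes and Hey repressor families. In blood vessels the pathway is known for arterial identity, for the restraint of sprouting tip cells by Dll4, and for the coupling of endothelium to the mural cells around it, which carry Notch3. UMI counts measure RNA, and neither the proteins nor the cleavage of a receptor was measured.

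After filtering, 649 barcodes remained in the library labelled lung P1, 1918 in the library labelled fat P1, 1420 in lung P2 and 7399 in fat P2, with 1110683, 6344135, 3801205 and 39076362 UMIs in the same order. The populations carried the RNA of their gates: Pecam1, which encodes CD31, stood at 1222 and 1749 CPM (UMIs per 1000000 UMIs of the library) in the libraries labelled lung P1 and fat P1, against 85.5 and 2.64 CPM in lung P2 and fat P2. Pdgfra stood at 14.4 and 9.46 CPM in the P1 libraries and at 1762 and 445 CPM in the P2 libraries. The tissue labels of the P1 libraries were at odds with tissue genes. Foxf1, a transcription factor of lung mesenchyme and endothelium, had 3.60 CPM under the lung label and 715 CPM under the fat label, and Fabp4, a lipid carrier of fat capillaries, had 12385 CPM under the lung label and 96.5 CPM under the fat label. P1 values are therefore given by label, as P1 labelled lung and P1 labelled fat, and the comparisons of P1 with P2 are also given with these libraries exchanged, for the pathway genes at the end as an alternative chosen after the data had been seen. The library labelled lung P1 further differed from the others in how its RNA was spread over barcodes. The UMIs of 12 endothelial and of 12 fibroblast marker genes varied between its barcodes only 1.17 and 1.11 times as much as random draws would, against 2.97 to 28.7 and 13.9 to 23.4 times in the other 3 libraries. At least 3 UMIs of both lists were held by 52.8% of its barcodes after thinning to 2000 UMIs, against 0.273% to 1.05% elsewhere. Its clusters are not described below, and a share of its barcodes is a measure of the library and not of its cells. Of the deposited barcodes, 54 were shared between the library labelled lung P1 and fat P2 and 20 between both P1 libraries, with 1 to 8 in each other pair, but only 3 shared barcodes were kept.

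P1 carried the RNA of Notch1, Notch4, Dll4, Jag2 and Hey1, and P2 carried more of Notch2, in both tissues. Receptor RNA summed to 337 CPM (95% interval 303 to 373) in P1 labelled lung and 517 CPM (499 to 535) in P1 labelled fat, against 190 CPM (176 to 204) in lung P2 and 128 CPM (125 to 132) in fat P2. The receptors thus differed in kind more than in sum. Notch1 made up 53.2% and 70.2% of receptor UMIs in the P1 libraries labelled lung and fat, against 36.7% in lung P2 and 14.9% in fat P2. Notch2 made up 3.48% and 2.32% in the P1 libraries, against 39.8% in lung P2 and 75.5% in fat P2. The 3 ligands summed to 372 and 328 CPM in P1 labelled lung and P1 labelled fat, against 23.2 and 66.3 CPM in lung P2 and fat P2. In fat P2, 99.2% of ligand UMIs were Jag1. The 3 targets summed to 314 and 411 CPM in the P1 libraries, against 270 and 112 CPM in the P2 libraries of lung and fat. Counting from the 3' end gives each captured transcript 1 UMI whatever its length, so levels of different genes were compared without a length correction. Intervals of CPM are exact Poisson intervals, those of shares are exact Clopper-Pearson intervals, and both cover counting error only.

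**Figure D1:**
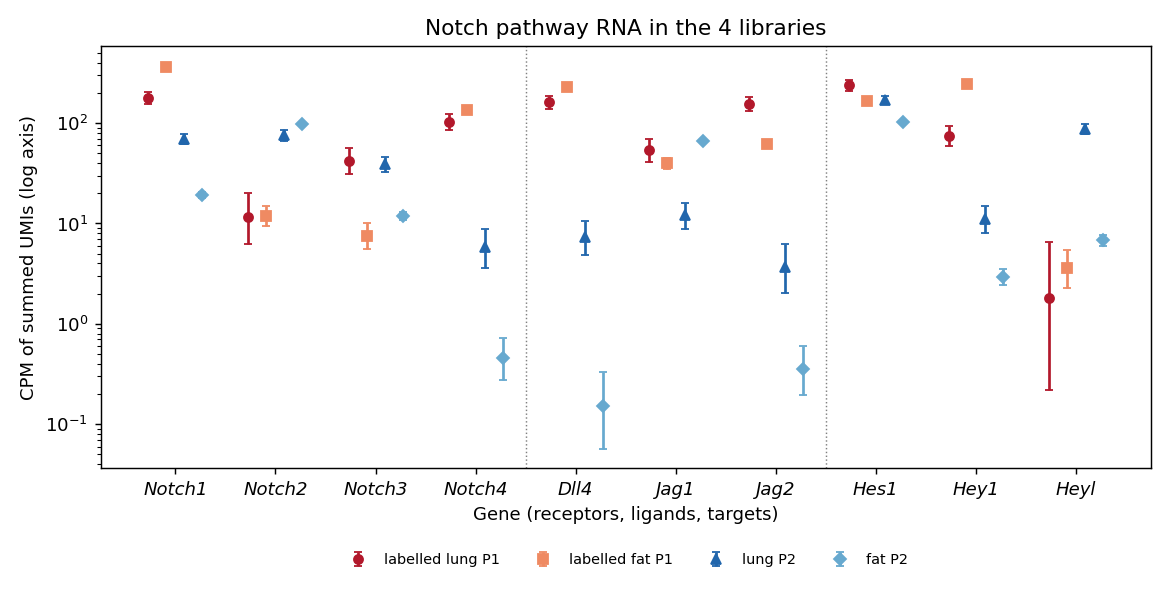
CPM of summed UMIs (log axis) of the 10 Notch genes in the 4 libraries, with exact Poisson 95% intervals. Notch4, Dll4, Jag2 and Hey1 lie higher in both P1 libraries than in both P2 libraries, whereas Notch2 lies at 11.7 and 12.0 CPM in the P1 libraries and at 75.5 and 96.9 CPM in the P2 libraries.

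Among the receptors, Notch1 (ENSMUSG00000026923, chr2:26457903-26516663 on the minus strand of GRCm38), the main endothelial Notch receptor, had 179 CPM (155 to 206) in P1 labelled lung, 363 CPM (348 to 378) in P1 labelled fat, 69.7 CPM (61.6 to 78.6) in lung P2 and 19.1 CPM (17.7 to 20.5) in fat P2. No intervals overlapped, and the order ran from P1 labelled fat down to fat P2. Notch1 was found in 36.0% of 161 thinned barcodes of P1 labelled lung, 48.2% of 1466 of P1 labelled fat, 12.7% of 764 of lung P2 and 3.07% of 6717 of fat P2. Without thinning the shares were 25.9%, 62.0%, 14.2% and 7.81%, at median depths of 1560, 2949.5, 2124.5 and 5066 UMIs per barcode. In both P2 libraries Notch1 stood higher than Notch4, Dll4 and Jag2, which are given below, and it was higher in lung P2 than in fat P2. Of its UMIs in lung P2, 72.1% lay in fibroblast-like cells and 15.5% in 26 endothelial-like cells.

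Notch4 (ENSMUSG00000015468, chr17:34564268-34588503, plus strand), a receptor largely restricted to endothelium, had 104 CPM (85.5 to 124) in P1 labelled lung, 135 CPM (126 to 144) in P1 labelled fat, 5.79 CPM (3.63 to 8.76) in lung P2 and 0.461 CPM (0.273 to 0.728) in fat P2. It was found in 17.4% and 22.8% of thinned P1 barcodes of the labels lung and fat, against 0.654% in lung P2 and 0.0596% in fat P2, and without thinning in 15.6%, 33.8%, 1.06% and 0.203%. Of its 22 UMIs in lung P2, 77.3% lay in 26 endothelial-like cells.

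Notch2 (ENSMUSG00000027878, chr3:98013527-98150361, plus strand), a receptor of many mesenchymal cells, showed the opposite order. It had 11.7 CPM (6.23 to 20.02) in P1 labelled lung and 12.0 CPM (9.44 to 14.99) in P1 labelled fat, against 75.5 CPM (67.02 to 84.8) in lung P2 and 96.9 CPM (93.9 to 100.1) in fat P2. The P1 intervals overlapped each other and neither P2 interval. After thinning, 3.73% and 1.98% of P1 barcodes held Notch2, against 14.3% in lung P2 and 17.5% in fat P2, and without thinning 2.003% and 3.60%, against 18.2% and 36.3%.

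Notch3 (ENSMUSG00000038146, chr17:32120820-32166852, minus strand), the receptor of smooth muscle cells and pericytes, did not follow the populations. It had 42.3 CPM (31.1 to 56.3) in P1 labelled lung, 7.57 CPM (5.58 to 10.0) in P1 labelled fat, 38.9 CPM (32.9 to 45.7) in lung P2 and 11.8 CPM (10.8 to 13.0) in fat P2. The library labelled lung P1 and lung P2 had overlapping intervals. Thinned barcodes held Notch3 in 7.45%, 0.614%, 3.01% and 2.20% of cases in the same order, and 45 of 649, 10 of 1918, 71 of 1420 and 4.77% of 7399 unthinned barcodes held it. The summed level of 12 mural marker genes was 699 CPM in P1 labelled lung, 434 in P1 labelled fat, 909 in lung P2 and 226 CPM in fat P2, with 2, 1, 3 and 1 of the 12 at 100 CPM or more and none at 0. In lung P2 most Notch3 lay in 2 clusters led by mural genes, given below with a further cluster that held mural RNA and no Notch3, and the part of mural RNA in P1 labelled lung was not tested.

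Among the ligands, Dll4 (ENSMUSG00000027314, chr2:119325784-119335962, plus strand), the endothelial ligand of Notch1, had 162 CPM (139 to 188) in P1 labelled lung and 227 CPM (215 to 239) in P1 labelled fat, against 7.37 CPM (4.89 to 10.6) in lung P2 and 0.154 CPM (0.0563 to 0.334) in fat P2. These levels rest on 180, 1438, 28 and 6 UMIs. All 28 UMIs of lung P2 came from its 26 endothelial-like cells, and 5 of the 6 UMIs of fat P2 from 17 cells named endothelial-like by rule. Those 17 cells had endothelial markers at 5457 CPM and fibroblast markers at 28137 CPM, so they held RNA of both classes. Fibroblast-like cells held none: 0 UMIs in 1302 such cells of lung P2 allow up to 0.896 CPM, and 0 UMIs in 7087 such cells of fat P2 allow up to 0.0796 CPM. Dll4 was found in 24.2% of thinned barcodes of P1 labelled lung and 33.4% of those of P1 labelled fat, and in 23.4% and 44.1% without thinning. In the fibroblast-like class, which should lack it, 0 of 706 thinned cells of lung P2 and 0 of 6531 of fat P2 held it, which allows shares of up to 0.425% and 0.0459%. Free RNA was nonetheless present in lung P2, where Sftpc, a gene of alveolar epithelium, was found in 71.0% of the same 706 cells.

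Jag2 (ENSMUSG00000002799, chr12:112907819-112929776, minus strand), a further endothelial ligand, had 156 CPM (133 to 181) in P1 labelled lung and 61.9 CPM (56.0 to 68.4) in P1 labelled fat, against 3.68 CPM (2.01 to 6.18) in lung P2 and 0.358 CPM (0.196 to 0.601) in fat P2. In each P2 library 78.6% of its 14 UMIs lay in the endothelial-like cells. Jag2 was thus close to Dll4 in its absence from stromal cells, but its order between the P1 libraries was the reverse of that of Dll4. Thinned barcodes held it in 21.7% and 11.6% of cases in P1 labelled lung and fat, against 0.785% and 0.0596% in lung P2 and fat P2, and unthinned ones in 22.03% and 17.3%, against 0.775% and 0.0946%.

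Jag1 (ENSMUSG00000027276, chr2:137081456-137116644, minus strand), a ligand that endothelium presents to mural cells, was the only 1 of the 3 ligands with its highest level in a stromal library. It had 54.0 CPM (41.2 to 69.5) in P1 labelled lung, 39.7 CPM (35.0 to 44.9) in P1 labelled fat, 12.1 CPM (8.86 to 16.1) in lung P2 and 65.8 CPM (63.3 to 68.4) in fat P2. The interval of P1 labelled lung overlapped those of both fat libraries. After thinning, Jag1 was held by 9.94% and 7.503% of barcodes of P1 labelled lung and P1 labelled fat, against 1.44% in lung P2 and 11.6% in fat P2, and without thinning by 9.09% and 11.5%, against 2.75% and 25.03%. Fibroblast-like cells carried 97.0% of its UMIs in fat P2 and 43.5% of its 46 UMIs in lung P2.

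Dll4 and Notch4 had the most similar profiles of any pair among the 10 genes: across 55 clusters of at least 20 cells from the 4 libraries their log2(CPM + 10) values had a Pearson r of 0.98, and Notch4 was the gene most like Dll4 in the whole table. The clusters share 4 libraries and differ in depth, so this r describes them and carries no p-value. Their promoters are shown because both genes followed endothelial cells so closely. They are the 250 bases before and 50 after the RefSeq start on GRCm38.p6, at chr2:119325534-119325833 and chr17:34564045-34564344, both on the plus strand. Capitals mark GGAAG or its reverse complement CTTCC, the core of ETS factor sites, and ACAAT or its reverse complement ATTGT, the core of SOX factor sites.
Dll4: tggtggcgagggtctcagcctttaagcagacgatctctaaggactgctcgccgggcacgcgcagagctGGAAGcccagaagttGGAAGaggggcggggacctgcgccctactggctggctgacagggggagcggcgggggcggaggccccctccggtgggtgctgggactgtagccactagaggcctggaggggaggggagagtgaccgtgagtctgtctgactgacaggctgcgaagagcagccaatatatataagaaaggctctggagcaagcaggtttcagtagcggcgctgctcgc
Notch4: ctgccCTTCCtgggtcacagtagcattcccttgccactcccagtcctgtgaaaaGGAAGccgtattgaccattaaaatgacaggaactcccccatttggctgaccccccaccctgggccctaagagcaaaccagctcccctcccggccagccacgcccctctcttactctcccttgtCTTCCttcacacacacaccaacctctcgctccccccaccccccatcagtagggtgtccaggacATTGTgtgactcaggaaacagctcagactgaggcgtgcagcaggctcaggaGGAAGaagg
The Dll4 window holds 2 ETS cores and no SOX core, and the Notch4 window holds 4 ETS cores and 1 SOX core. Of 32851 mouse promoters of this length in the table, 71.4% hold an ETS core and 31.0% a SOX core on either strand, so such matches are common. The RBPJ core TGGGAA or TTCCCA is in 25.6% of all promoters and in none of the windows of the 7 genes with a RefSeq entry in the table, which were the 4 receptors, Dll4, Jag1 and Jag2. Hes1, Hey1 and Heyl had no entry. No match says only that these letters are not in this window.

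Among the targets, Hey1 (ENSMUSG00000040289, chr3:8663359-8667256, minus strand), a repressor of arterial endothelium, followed the endothelial ligands. It had 74.7 CPM (59.5 to 92.6) in P1 labelled lung, 243 CPM (231 to 255) in P1 labelled fat, 11.0 CPM (7.96 to 14.9) in lung P2 and 2.94 CPM (2.43 to 3.53) in fat P2. Thinned barcodes held it in 16.1%, 32.8%, 1.83% and 0.506% of cases in the same order, and unthinned ones in 12.2%, 40.4%, 2.11% and 1.38%. Its ratio between the P1 libraries, lung over fat by label, was 0.308 (0.244 to 0.384).

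Hes1 (ENSMUSG00000022528, chr16:30064384-30067796, plus strand), a repressor found in many cell types, was the target most evenly spread. It had 238 CPM (210 to 268) in P1 labelled lung, 165 CPM (155 to 175) in P1 labelled fat, 172 CPM (159 to 185) in lung P2 and 103 CPM (99.4 to 106) in fat P2. The intervals of P1 labelled fat and lung P2 overlapped. Thinned barcodes held it in 32.9%, 22.9%, 19.8% and 13.6% of cases in the same order, and unthinned ones in 32.4%, 28.7%, 22.04% and 24.98%. Hes1 also answers to signals other than Notch, and a set of 7 immediate early genes, chosen after values had been seen, differed widely between libraries: it summed to 12894 and 1693 CPM in P1 labelled lung and P1 labelled fat, against 2916 and 17825 CPM in lung P2 and fat P2. The part of immediate early activity in the levels of Hes1 was not tested.

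Heyl (ENSMUSG00000032744, chr4:123233556-123249875, plus strand), a Notch target of mural cells, was highest in lung P2. It had 1.801 CPM (0.218 to 6.505) in P1 labelled lung, 3.63 CPM (2.30 to 5.44) in P1 labelled fat, 87.3 CPM (78.2 to 97.3) in lung P2 and 6.78 CPM (5.99 to 7.65) in fat P2. The interval of P1 labelled lung, which held 2 UMIs, overlapped those of both fat libraries. Heyl was found in 0 of 161 thinned barcodes of P1 labelled lung, which allows a share of up to 1.86%, in 0.205% of those of P1 labelled fat, in 13.7% of lung P2 cells and in 1.07% of fat P2 cells, and without thinning in 0.308%, 0.521%, 16.5% and 2.69%. Notch3 and Heyl, both known from mural cells, thus stood apart in P1 labelled lung, where Notch3 was held by 7.45% of thinned barcodes.

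The comparison of P1 with P2 addresses how the CD31+ and the PDGFRa+ progenitors differ. A gene was called at least 4-fold different where the log2 ratio of (CPM + 10) reached 2 in either direction and 1 of the 2 libraries had 50 CPM or more. In lung, 4 of the 9 members that passed the minimum reached it upwards in P1 and 1 downwards, where the same rule called 20.4% of 4773 genes (8.61% higher and 11.8% lower). Jag2 had a log2 ratio of 3.60, Dll4 3.31, Notch4 2.85 and Hey1 2.01, and Heyl had -3.04. As plain ratios of CPM without the added 10, Jag2 was 42.3 times (24.5 to 79.0) and Dll4 22.0 times (14.7 to 34.0) as high in P1 labelled lung as in lung P2. Notch2, at -1.98, fell just short of the threshold, and Notch1 (1.25), Jag1 (1.53), Hes1 (0.45) and Notch3 (0.10, under the minimum level) lay inside it. Hey1 was close to the threshold and fell just under it, at 1.998, when no doublets were removed. With 50 CPM added in place of 10, none of the 9 members was called in lung and 3 of the 8 in fat. The rule then called 7.54% of all genes tested in lung and 10.1% in fat.

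In fat, 5 of the 8 members that passed the minimum were called higher in P1 and 1 lower, where the rule called 22.6% of 4724 genes (12.4% higher and 10.1% lower). Dll4 had a log2 ratio of 4.54, Hey1 4.29, Notch4 3.79, Notch1 3.68 and Jag2 2.80, and Notch2 had -2.28. Without the added 10 CPM, Dll4 was 1476 times (677 to 4029) as high in P1 labelled fat as in fat P2, and Notch4 292 times (184 to 495). Jag1 (-0.61) and Hes1 (0.63) were the tested members inside the threshold, and Notch3 (-0.31) and Heyl (-0.30) were under the minimum level. The median of the members that passed was 1.53 in lung and 3.24 in fat, beside -0.12 and 0.38 over all genes tested. With TMM factors the share of higher genes among all called genes in fat was 41.5%, against 55.2% with library sums. The same 6 members were then called, where the rule called 23.5% of all genes tested.

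With the P1 libraries exchanged, the counts were 5 higher and 1 lower of 8 members that passed the minimum in either tissue. The rule then called 19.5% of 4851 genes in lung and 19.6% of 4275 genes in fat. Against lung P2, P1 labelled fat then gave log2 ratios of 3.77 for Dll4, 3.58 for Hey1, 3.20 for Notch4, 2.39 for Jag2, 2.23 for Notch1 and -2.84 for Heyl. Against fat P2, P1 labelled lung gave 4.08 for Dll4, 4.0002 for Jag2, 3.44 for Notch4, 2.71 for Hey1, 2.70 for Notch1 and -2.30 for Notch2. Dll4, Notch4, Jag2 and Hey1 were therefore called higher in P1 in each of the 4 pairings of a P1 with a P2 library, and Notch1 in 3 of the 4. These pairings share libraries and are not separate measurements.

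**Figure D2:**
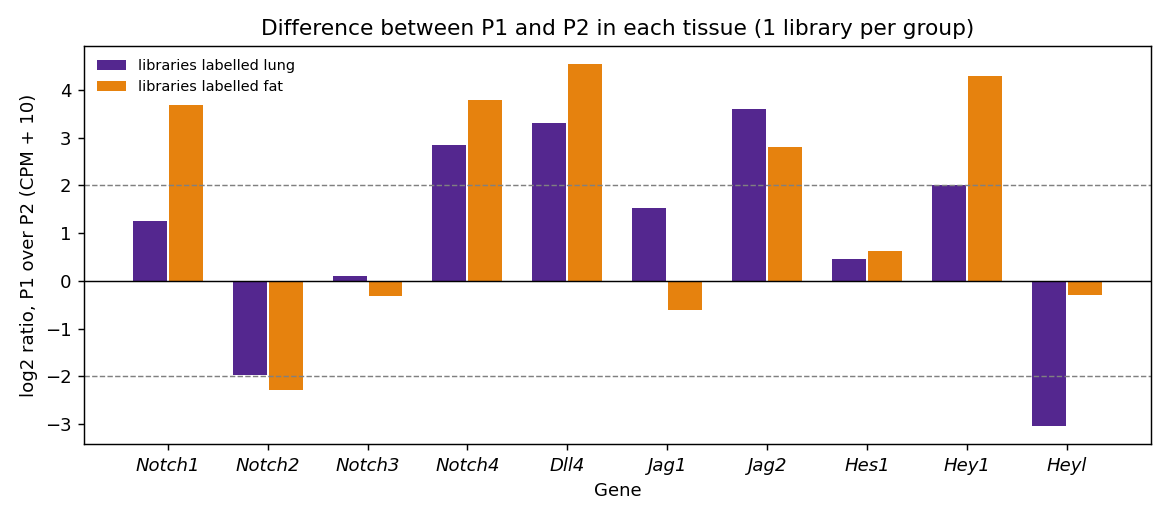
Log2 ratio of (CPM + 10), P1 over P2, for each Notch gene in the libraries labelled lung and labelled fat, with dashed lines at the 4-fold threshold. Dll4 (3.31 and 4.54), Notch4, Jag2 and Hey1 pass it in both tissues, Jag1 points up in lung (1.53) and down in fat (-0.61), and no error bars are drawn because each group is 1 library.

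Between the tissues fewer members were called than between P1 and P2, and the same held for all genes under the rule. In P1, none of the 7 members that passed the minimum was at least 4-fold different between the libraries labelled lung and fat, where the rule called 10.9% of 4593 genes (5.2% higher and 5.73% lower). With barcodes of at most 5% mt- UMIs, 1 of 8 members was called, Notch3 at 2.04, where the rule called 11.5% of all genes tested. Of the 7, Hey1 (log2 ratio -1.58), Jag2 (1.20) and Notch1 (-0.98) lay farthest from 0, and Notch3, under the minimum level with all kept barcodes, had 1.57. The signs turn when the P1 libraries are exchanged. In P2, Heyl was 4-fold higher in lung (log2 2.54), as 1 of 5 members that passed, where the rule called 13.1% of 4314 genes (8.25% higher and 4.84% lower). As a plain ratio, Heyl was 12.9 times (10.9 to 15.2) as high in lung P2 as in fat P2. Notch1 was higher in lung P2 as well (1.45), and Jag1 lower (-1.78), while Notch2 (-0.32) and Hes1 (0.69) were closer. Jag1 passed the threshold with TMM factors, at -2.10, and among fibroblast-like cells alone, at -2.25. With TMM factors the share of higher genes among all called genes of this comparison was 43.2%, against 63.0% with library sums. Notch3 had a log2 ratio of 1.17 between the P2 libraries and of -0.54 between their fibroblast-like cells, at 4.18 CPM in lung and 10.6 CPM in fat, so its sign depends on which cells are counted.

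Read as senders and receivers of the signal, the P1 libraries held both ligands and receptors in more thinned barcodes than the P2 libraries did. Receptors were found in more thinned barcodes than ligands in every library, with 4 receptor genes counted against 3 ligand genes. After thinning to 2000 UMIs, any of the 3 ligands was found in 44.7% of barcodes of P1 labelled lung and 45.0% of P1 labelled fat, against 2.23% of lung P2 and 11.7% of fat P2 cells. Any of the 4 receptors was found in 54.7% and 60.9% of P1 barcodes of the labels lung and fat, against 27.4% of lung P2 and 21.9% of fat P2 cells. Both a ligand and a receptor were found in 22.4% and 30.1% of P1 barcodes, against 1.31% and 2.81% of P2 cells of lung and fat. The share with both depends on the single shares, and in P1 labelled lung, whose barcodes hardly differ, a shared barcode does not show a shared cell. In P2, 71.7% of lung P2 cells and 69.3% of fat P2 cells held none of the 7 genes at this depth. Without thinning, the share with any receptor was 41.6% in P1 labelled lung, 74.9% in P1 labelled fat, 32.7% in lung P2 and 44.1% in fat P2, so its order between these libraries depends on depth. The share with any ligand was then 44.2%, 59.1%, 3.73% and 25.1% in the same order, and the share with both was 19.6%, 47.1%, 2.32% and 12.8%. In fat P2, cells with Jag1 held Notch2 in 22.1% of 779 cases (19.2 to 25.2), against 16.9% of 5938 cells without Jag1 (15.9 to 17.9), and they held Notch1 in 1.28% (0.617 to 2.35), against 3.30% (2.86 to 3.79).

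The 1918 cells of P1 labelled fat fell into 12 clusters made without the Notch genes and their pathway, so that levels in the clusters are not fixed by the clustering. The cluster led by Esm1 and Cxcr4 (166 cells), genes known from sprouting tip cells, had the highest Dll4 at 558 CPM, the highest Notch1 at 679 CPM and the highest Hey1 at 568 CPM. Dll4 was found in 60.6% and Hey1 in 65.4% of its 127 thinned cells. The endothelial-like cluster led by Fabp4, Atp13a3 and Timp4 (49 cells), whose cells carried the arterial connexin Gja5 at 465 CPM, came next, with Dll4 at 401 and Notch1 at 550 CPM. Its arterial markers summed to 3766 CPM and its venous markers to 2495 CPM, against 3969 and 519 CPM in the Esm1-led cluster. The Fabp4-led cluster thus held RNA of both kinds. The cluster led by Slc6a2, with venous markers summing to 6311 CPM (39 cells), had the lowest Dll4 of the endothelial-like clusters, at 15.98 CPM. Notch1, at 256 CPM there, varied less.

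The largest cluster of P1 labelled fat (430 cells), led by Ednrb, Fibin and Chst1 with Tbx2, Apln and Car4 among its 10 leading genes, carried Notch receptors and Dll4 with almost no Hey1. Those are marker genes of aerocytes, the gas-exchange capillary cells of the lung. Hey1 was at 14.1 CPM there, against 69.2 to 568 CPM in the other endothelial-like clusters. Dll4 was at 150 CPM, Notch1 at 280 CPM and Hes1 at 133 CPM, all inside the range of those other clusters. Each lay below the median of the 8 endothelial-like clusters, which was 239, 385 and 148 CPM in the same order. The low end of the range of Dll4 and Notch1 was the Slc6a2-led cluster. Hey1 was found in 0.838% of its 358 thinned cells, and Notch1 in 43.0% and Dll4 in 25.1%. The arterial markers summed to 335 CPM in this cluster, against 900 to 3969 CPM in the other endothelial-like clusters.

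Jag1 was also lowest in the Ednrb-led cluster, at 13.5 CPM, whereas Jag2 stood at 72.8 CPM there, inside its range of 15.98 to 98.5 CPM in the other endothelial-like clusters. The endothelial-like cluster led by Ciita and other interferon-induced genes (146 cells) had the highest Hes1 of the library at 267 CPM and the second highest Hey1 at 512 CPM. Notch3 and Heyl were concentrated in an epithelium-like cluster led by Ager (39 cells), at 172 and 86.2 CPM, and reached at most 10.7 and 1.72 CPM in the endothelial-like clusters. In the Ager-led cluster, 7 of the 39 cells held Notch3 and 9 held Heyl without thinning. Markers of mural cells summed to 2931 CPM and those of fibroblasts to 1810 CPM in that cluster. Their part in its Notch3 was not tested. With clusters made at a Leiden resolution of 2 in place of 1, the highest Notch3 and Heyl among clusters of at least 20 cells were 12.6 and 2.47 CPM. Smaller clusters were left out of these values, so they do not show where the Notch3 and Heyl of the Ager-led cells went.

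**Figure D3:**
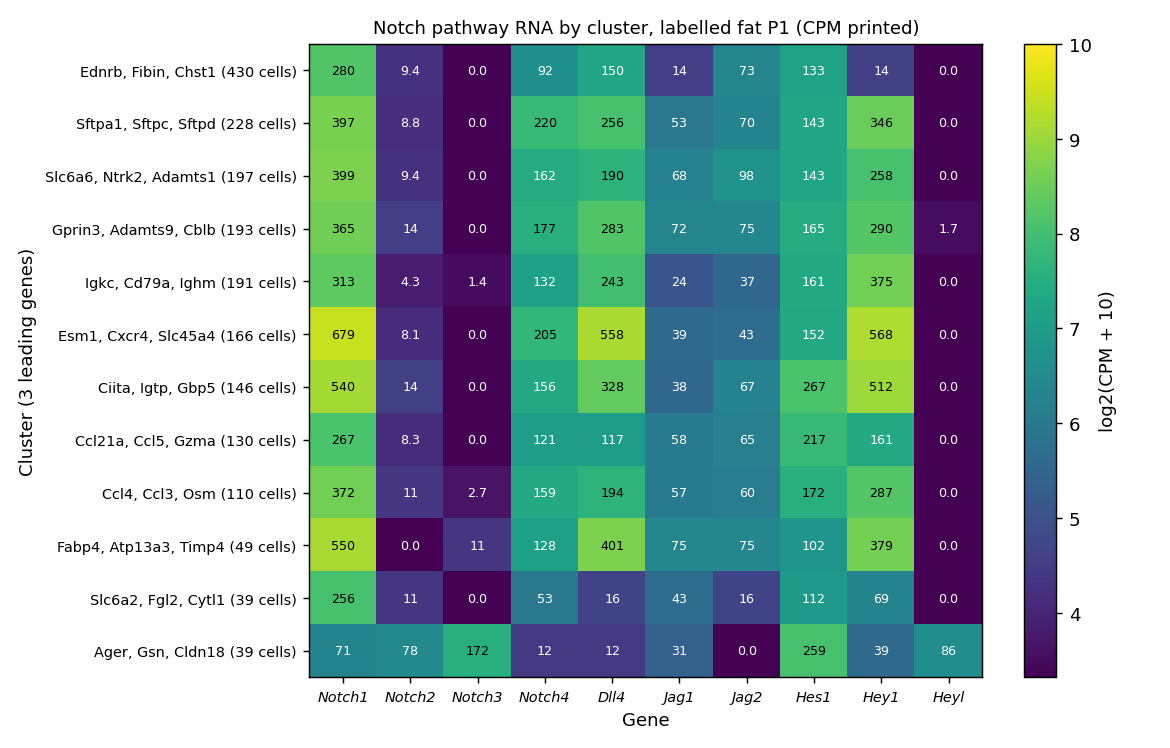
CPM (printed) of the Notch genes in the 12 clusters of P1 labelled fat, named by 3 leading genes, with colour as log2(CPM + 10). The Esm1-led row is brightest for Notch1, Dll4 and Hey1, and the Ednrb-led row is dark for Hey1 (14.1 CPM) but not for Notch1 or Dll4.

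Cells with Dll4 also held Hey1 and Notch1 more often. Among thinned endothelial-like cells of P1 labelled fat, Hey1 was found in 41.9% of 363 cells with Dll4 (36.7 to 47.1) and 25.8% of 678 cells without Dll4 (22.6 to 29.3). Without the Ednrb-led cluster the shares were 54.6% of 273 (48.5 to 60.6) and 42.7% of 410 (37.8 to 47.6). Inside the Ednrb-led cluster, Hey1 was found in 3 of 90 cells with Dll4 and in 0 of 268 cells without, which allows up to 1.12%. Notch1 was found in 62.3% of cells with Dll4 (57.1 to 67.3) and in 47.2% of those without (43.4 to 51.0). Inside the Ednrb-led cluster the Notch1 shares were 44.4% (34.0 to 55.3) and 42.5% (36.5 to 48.7), with overlapping intervals. Hes1 differed less, at 25.6% and 20.9%, with overlapping intervals. Cells with Dll4 had a median of 3323 UMIs before thinning and cells without it 3582.5. Cells of 1 library are not replicates, and the clusters differ in all of these genes.

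In lung P2, Notch3 belonged to 2 small clusters. The cluster led by Postn, Cox4i2 and Higd1b (39 cells), genes known from pericytes, had Notch3 at 952 CPM, and the cluster led by the smooth muscle genes Acta2 and Myh11 (34 cells) had it at 837 CPM. These 73 cells carried 90.5% of the Notch3 UMIs of the library. Notch3 stood at 4.18 CPM in the 1302 fibroblast-like cells. The mural markers summed to 7541 and 16312 CPM in these 2 clusters, and to 128 to 7978 CPM in the fibroblast-like clusters. The highest of those sums belonged to the Hhip-led cluster (20 cells), where Notch3 had 0 UMIs, which allows up to 49.1 CPM. Both stayed unnamed because their marker lists pointed to different cell types. The Postn-led cluster also had the highest Notch1 of lung P2, at 317 CPM (196 to 485), and the highest Notch2, at 212 CPM. Jag1 was highest in the Acta2-led cluster at 118 CPM (56.5 to 217).

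Heyl in lung P2 was not limited to these clusters. It had 257 CPM in the Postn-led and 401 CPM in the Acta2-led cluster, but 84.0% of its UMIs lay in fibroblast-like cells, at 83.3 CPM (73.9 to 93.7). Among fibroblast-like clusters Heyl was highest at 201 CPM in the cluster led by Adh7 and Hmcn2 (76 cells), where Notch3 had 0 UMIs, which allows up to 11.0 CPM. Of the Adh7-led cells, 37.3% of 59 thinned cells held Heyl. Fibroblast-like cells of lung P2 thus had Heyl with Notch1 (57.1 CPM), Notch2 (79.5 CPM) and hardly any Notch3, and with hardly any ligand: Jag1 stood at 5.97 CPM and Jag2 at 0.597 CPM.

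The 26 endothelial-like cells of lung P2, led by Ptprb, Hpgd and Vwf, carried the Notch genes that were high in P1. They had Dll4 at 132 CPM (87.4 to 190), Notch4 at 79.9 CPM, Jag2 at 51.7 CPM, Hey1 at 98.6 CPM and Notch1 at 193 CPM. Notch2 was at 4.70 CPM there, against 79.5 CPM in the fibroblast-like cells. Pecam1, the gene of the CD31 that the P2 gate left out, is among their leading genes, and they held 21 of the 42 Hey1 UMIs of the library.

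**Figure D4:**
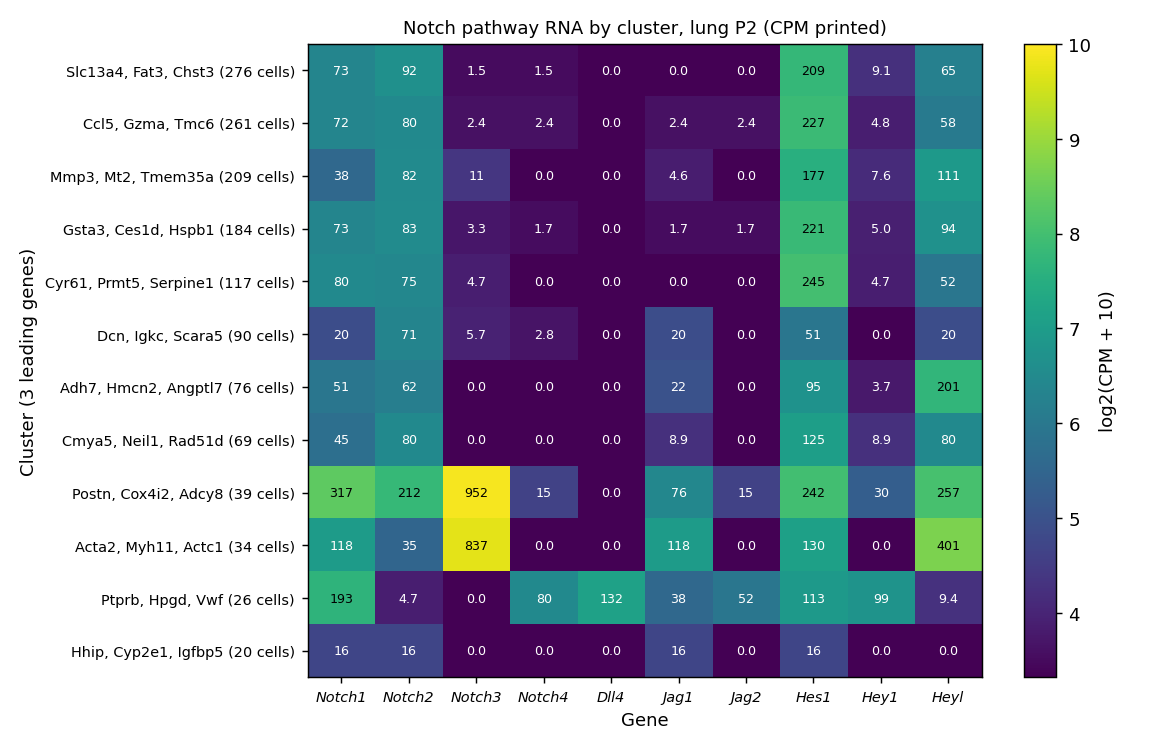
CPM (printed) of the Notch genes in the lung P2 clusters of at least 20 cells, named by 3 leading genes, with colour as log2(CPM + 10). Notch3 is bright only in the Postn-led (952 CPM) and Acta2-led (837 CPM) rows, Dll4 only in the Ptprb-led row (132 CPM), and Heyl in several fibroblast-like rows.

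In fat P2, Notch1 and Jag1 marked different fibroblast-like clusters. Notch1 stood at 101 CPM in the cluster led by Scg3 and Sdc1 (360 cells) and 51.8 CPM in that led by Nrep, Aoc3 and Col4a1 (784 cells). It stood at 0.523 CPM in the cluster led by Krtdap and Dmkn (1334 cells) and 1.57 CPM in that led by Sema3c with Pi16 and Dpp4 (669 cells), genes known from interstitial progenitors of fat. Jag1 ran the other way, with 115 and 77.4 CPM in the Krtdap-led and Sema3c-led clusters, against 51.1 and 30.4 CPM in the Scg3-led and Nrep-led clusters. Notch2 followed Jag1, at 136, 126, 80.7 and 58.7 CPM in the same order of clusters. Across the 20 clusters of at least 20 cells, Jag1 and Notch2 had a Pearson r of 0.75, and Jag1 and Notch1 an r of -0.54; these points share 1 library and differ in depth. In the Krtdap-led cluster Notch1 was found in 0 of 1274 thinned cells, which allows up to 0.235%, and Jag1 in 20.3% of them.

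Hes1 and the mural pair were also uneven in fat P2. Hes1 ranged from 10.8 CPM in the cluster led by Akr1c18 and Dmkn (210 cells) to 459 CPM in that led by Wfdc18, Ltf and Csn3 (76 cells), genes known from mammary epithelium, where Notch1 stood at 165 CPM. Fibroblast markers summed to 25823 CPM in the Wfdc18-led cluster. Hes1 and Notch1 had an r of 0.78 over the 20 clusters. The 7 immediate early genes moved with Hes1 in part: they summed to 1236 and 2807 CPM in the Akr1c18-led and Sema3c-led clusters, where Hes1 was 10.8 and 25.9 CPM, and to 27665 to 31704 CPM in the Nrep-led, Igfbp2-led and Scg3-led clusters, where Hes1 was 178 to 241 CPM. The Cilp-led and Apod-led clusters had similar sums of 27548 and 25948 CPM with Hes1 at 105 and 75.9 CPM, and the Wfdc18-led cluster had 20986 CPM. Their part in Hes1 was not tested. Notch3 stood at 369 CPM in the Acta2-led cluster (22 cells) and at 296 CPM in the Nppc-led cluster (34 cells). In the Acta2-led cluster mural markers summed to 7269 CPM and fibroblast markers to 32805 CPM.

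The Nppc-led cluster was unlike the rest of fat P2. Its leading genes include Myf5 and Pax7, transcription factors of muscle stem cells, and Des, so its name by rule as fibroblast-like does not describe it. It had the highest Heyl of the library at 314 CPM, the highest Hey1 at 102 CPM and Notch1 at 111 CPM, with Jag1 at 9.24 CPM. Of its 30 thinned cells, 13 held Notch3 and 12 held Heyl. Its mural markers summed to 665 CPM. Among the large fibroblast-like clusters, Notch3 and Heyl were highest in the Nrep-led cluster at 45.3 and 31.5 CPM, and that cluster held 45.5% of the Notch3 UMIs of the library with 10.6% of its cells.

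**Figure D5:**
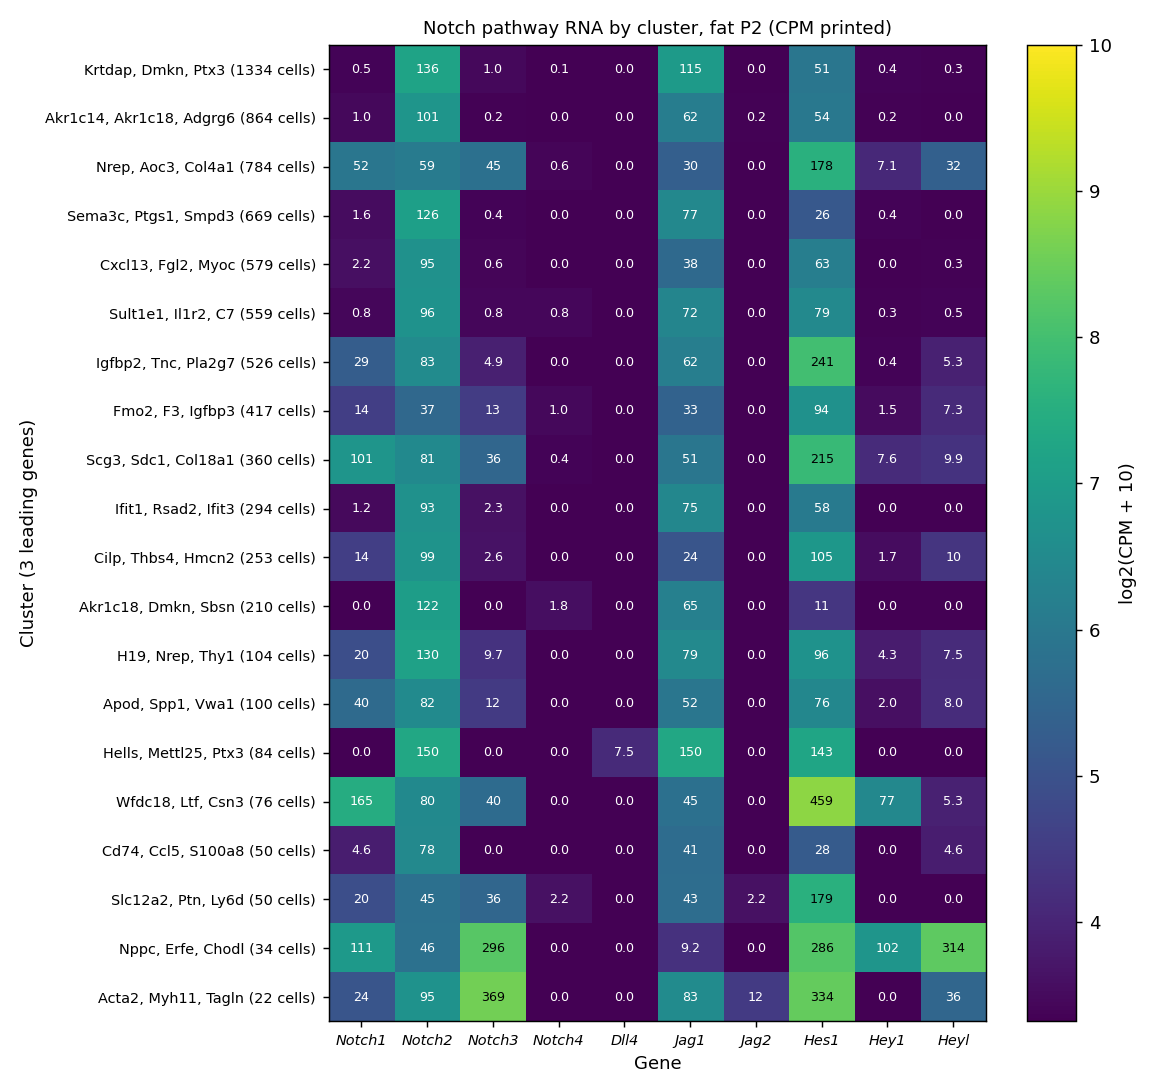
CPM (printed) of the Notch genes in the fat P2 clusters of at least 20 cells, named by 3 leading genes, with colour as log2(CPM + 10). Notch2 is present in every row (37.5 to 150 CPM), Notch1 ranges from 0 to 165 CPM, and the Nppc-led row is brightest for Heyl (314 CPM).

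The genes with profiles most like the members across the 55 clusters were named where Pearson's r of log2(CPM + 10) was 0.7 or more. Notch4 was most like Arhgef15, Arap3 and Rasip1 (r 0.99, 0.99 and 0.98), and Dll4 was like Notch4, Arhgef15 and Ushbp1 (0.98, 0.97 and 0.97). Jag2 was most like Scarb1, Robo4 and Emcn (0.96 each), and Hey1 like Acer2, Sema3g and Cd93 (0.92, 0.91 and 0.90). Notch1 had Jup, Ets2 and Epas1 (0.89, 0.88 and 0.88), Notch2 had Vasn, Dse and Lamc1 (0.90, 0.89 and 0.88), and Notch3 had Itga7, Ndufa4l2 and Parm1 (0.84, 0.79 and 0.78). Heyl was like Rnf150 (0.82), Jag1 was among the members with looser matches, such as Anxa3 (0.73), and no gene reached 0.7 with Hes1. Clusters of 1 library share that library, its depth and its free RNA, and 11 of the 55 are clusters of P1 labelled lung, whose barcodes hardly differ.

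Other genes of the pathway were described from 7 lists of 60 genes. In lung, 31 passed the minimum of 50 CPM in 1 library, with 4 at least 4-fold higher and 3 lower in P1 and a median log2 ratio of -0.61, beside -0.12 over all genes tested. These 22.6% of the list lie near the 20.4% called over all genes. In fat, 30 passed, with 7 higher and 1 lower and a median of 0.84, beside 0.38 over all genes tested, and the 26.7% called lie near the 22.6% over all genes. With the P1 libraries exchanged, 7 were higher and 3 lower of 33 in lung, and 6 higher and 1 lower of 27 in fat. These are 30.3% of the tested list genes in lung and 25.9% in fat, beside 19.5% and 19.6% over all genes. The fringe enzymes Mfng and Lfng, which add sugars to Notch receptors, were higher in P1 in both tissues, also with the P1 libraries exchanged (log2 ratios of 2.34 to 3.36): Mfng had 96.3 CPM in P1 labelled lung against 4.21 in lung P2, and 104 CPM in P1 labelled fat against 0.333 in fat P2. Lfng had 58.5 against 4.47 CPM, and 68.7 against 3.56 CPM, in the same pairs. The arterial connexin gene Gja4 was higher as well, also with the exchange, with 192 against 8.94 CPM in lung and 162 against 0.256 CPM in fat. Efnb2, an arterial ephrin ligand, had 833 CPM in P1 labelled fat against 15.5 in fat P2, and 111 CPM in P1 labelled lung against 28.7 in lung P2, and with the exchange it was called in lung (log2 4.45) and in fat (2.24).

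Of the 9 genes of receptor cleavage, 6 passed the minimum in lung and 5 in fat, and none was called, where the rule called 20.4% and 22.6% of all genes. Adam10, which makes the first cut, is an example (112 CPM in P1 labelled lung against 81.3 in lung P2, and 125 CPM in P1 labelled fat against 57.1 in fat P2). Rbpj, the gene of the DNA-binding partner, was lower in P1 in both tissues. It had 13.5 CPM in P1 labelled lung against 86.3 in lung P2, a log2 ratio of -2.03, and 49.0 CPM in P1 labelled fat against 223 in fat P2, a ratio of -1.98. With the P1 libraries exchanged the ratios were -0.71 in lung and -3.31 in fat. Its co-activator Maml3 was lower in P1 labelled lung (9.003 against 112 CPM in lung P2) and not in P1 labelled fat (61.8 against 19.8 CPM in fat P2), and with the exchange its log2 ratio was -0.77 in lung, where the call was lost, and -0.65 in fat, where the sign turned. Numb, an inhibitor of Notch, had 276 CPM in P1 labelled fat against 27.7 in fat P2, and 40.5 CPM in P1 labelled lung against 49.7 in lung P2. With the exchange Numb was called in lung (2.26) and no longer in fat (0.42). Efnb2 and Numb were the pathway genes at least 4-fold lower in P1 labelled lung than in P1 labelled fat, of 31 tested, and none was higher. That is 6.45% of the tested list genes, below the 10.9% called over all genes.

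Between the P2 libraries 26 of the 60 genes passed the minimum, with 2 at least 4-fold higher and 1 lower in lung; these 11.5% lie near the 13.1% called over all genes. Gja5 had 133 CPM in lung P2 and 0.128 CPM in fat P2, and it stood at 160 to 311 CPM in 5 of the 9 fibroblast-like clusters of lung P2, so its RNA there was not limited to endothelial-like cells. Maml3 had 112 and 19.8 CPM and Myc, a growth regulator, 1.84 and 54.8 CPM in lung P2 and fat P2. Dll1, a further Notch ligand, stood at 43.2 and 43.0 CPM in P1 labelled lung and P1 labelled fat, under the minimum level, against 3.42 and 0.256 CPM in lung P2 and fat P2.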

How the data were processed

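Cells were sorted from fat and lung of C57BL/6 mice, and 1 library per tissue and population was made with a 10x Genomics kit for 3' ends, per the labels' protocols. Cell Ranger 3.1.0 and the build mm10 are named in the submitters' processing notes. The deposited files give raw UMI counts for each gene in each barcode, with no normalization by the authors. Of 31053 entries, the 35 symbols shared by several IDs were summed. Barcodes with at least 1000 UMIs, 500 genes and at most 10% mt- UMIs were kept, which gave 652 (labelled lung P1), 1948 (labelled fat P1), 1436 (lung P2) and 7898 (fat P2). From these, 0.8% per 1000 barcodes were taken out by their Scrublet score (3, 30, 16 and 499), in place of the automatic threshold, which marked 33, 10, 3 and 3. A count of 0 in a library allows up to 2.70, 0.473, 0.789 and 0.0768 CPM (3 counts). For shares, each cell was thinned to 2000 UMIs and smaller cells were left out, which left 161, 1466, 764 and 6717 cells.

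Clusters were made within libraries (scanpy 1.11.5; 2000 variable genes without the 10 members and 60 pathway genes, 30 components, 15 neighbours, Leiden resolution 1) and named from marker lists, with at least 3 members at 100 CPM. Levels in clusters are CPM of UMIs summed over their cells. Named genes are the 10 members, up to 4 genes of each pathway list with the largest ratio per comparison among those at 20 CPM or more, the 3 genes most like each member where r is 0.7 or more (1 such gene is not reported here), the leading genes of clusters, and markers. The immediate early genes, and cluster genes beyond the 5 leading ones, were chosen after their values were seen. The members and lists were chosen with earlier results of these data known. Coordinates are from GENCODE vM21, promoters from RefSeq. The 4-fold rule was also run on simulated counts with counting error only, after the calls had been made, and the outcome is not reported here. Alternatives changed the added CPM, scaling (TMM, edgeR 4.0.16 on R 4.3.3), weighting, filters, doublet removal, cells compared, minimum level, thinning and cluster resolution.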

Additional observations from a re-analysis of the deposited data

Results flagged for a closer look

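Several members had opposite signs under the same contrast in 2 settings. With 1 library per group, none of these differences was tested. Between tissues, Notch1 had a log2 ratio of lung over fat of -0.98 in P1 and 1.45 in P2. Hey1 had -1.58 in P1 and 0.70 in P2, Dll4 had -0.46 and 0.77, and Notch4 had -0.35 and 0.59. Among fibroblast-like cells alone the P2 ratios were 1.29 for Notch1, 0.38 for Hey1, 0 for Dll4 and 0.12 for Notch4. The 4 signs in P1 turn when the P1 libraries are exchanged, and the P1 and P2 ratios of these genes then share a sign. Jag1 had a log2 ratio of P1 over P2 of 1.53 in lung and -0.61 in fat, and with the P1 libraries exchanged the ratios were 1.17 and -0.24.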

How the results depend on the processing

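No paired analysis was possible because each group is 1 library. The main counts of members at least 4-fold different were 5 (lung P1 over P2), 6 (fat P1 over P2), 0 (P1, lung over fat) and 1 (P2, lung over fat). Adding 50 CPM in place of 10, which shrinks ratios of low genes, gave 0, 3, 0 and 0. Over all genes tested it called 7.54%, 10.1%, 3.96% and 5.22% in the same order. In the P2 comparison 1 CPM added, TMM factors and fibroblast-like cells alone each gave 2 of 5, with Jag1 at -2.35, -2.10 and -2.25. Over all genes tested these settings called 16.1%, 13.8% and 13.3%. At most 5% mt- UMIs gave 1 of 8 in the P1 comparison, Notch3 at 2.04, and called 11.5% of all genes tested. In lung, no doublet removal gave 4 and the alternatives other than 50 CPM ranged from 4 to 7. Over all genes tested, no doublet removal called 20.2%, and these alternatives ranged from 3.42% with no minimum level to 24.6% with 1 CPM added. With the P1 libraries exchanged, the signs of lung over fat in P1 turn by construction, to 2.50 for Numb and 2.80 for Efnb2. Notch3, not called in any main comparison, changed sign in lung P1 over P2 (0.10) with per-cell means (-0.21), all barcodes (-0.17) and the exchange (-1.48), and in fat (-0.31) with the exchange (1.26). Hes1 in lung (0.45) became -0.055 with the exchange. TMM factors moved the median of all genes by -0.44 in fat P1 over P2 and -0.40 between the P2 libraries, and the exchange moved it by -0.41 (fat), 0.26 (lung) and 0.63 (P1). Of 470 member ratios under alternatives, 122 moved beyond their counting interval, as did 52 of 160 shares and 13 of 80 highest cluster levels. At resolution 2 the highest Notch3 and Heyl of the library labelled fat P1, among clusters of at least 20 cells, were 12.6 and 2.47 CPM. Smaller clusters were left out. The causes were not tested. The library labelled lung P1 has the lowest depth, where 3 counts are 2.70 CPM.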
